A study of Drosophila melanogaster with 4 samples.

Results

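The genes described are the translation initiation factors and aminoacyl-tRNA synthetases of Drosophila melanogaster, taken as the table rows whose gene name starts with eIF or Aats-, case sensitive. There were 49 such genes among 14664, of which 28 were initiation factor genes and 21 were synthetase genes. They were measured by RNA sequencing in testes of 2 genotypes, with 2 biological replicates each. The controls, here called bam, were mutant for bam, a gene that germ cells need to leave the spermatogonial divisions, and the other group, here called Phf7 bam, was mutant for bam and for Phf7, a PHD finger gene known for male germline identity. All flies thus carried the bam mutation, were kept at 25 °C and were dissected at most 3 days after eclosion, and no wild-type testis was compared. The alleles are not given in the labels.

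Initiation factors bring the ribosome to the start codon of an mRNA. eIF2 delivers the initiator tRNA and is recharged by eIF2B, eIF3 organizes the small ribosomal subunit, and the cap complex of eIF4E, eIF4G and eIF4A selects the mRNA by its 5′ cap. Aminoacyl-tRNA synthetases attach each amino acid to its tRNA, with separate enzymes for the cytoplasm and for mitochondria in most cases. The fly genome carries several extra eIF4E genes, and the male germline is known to use its own forms of the cap complex, eIF4E-3 and eIF4G2, in spermatocytes.

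Levels are FPKM, fragment numbers scaled to transcript length and library size, so that genes can be compared per length. Phf7 itself, listed as CG9576, stood at 173 and 152 FPKM in bam, and the Phf7 bam libraries listed it at 18.8 and 22.9 FPKM. The early germline genes vas, nos, bgcn, stg and bam were detected in every library, the transcript of the mutated gene bam at 26.5 to 32.6 FPKM. The summed FPKM of these 5 genes was 429 and 402 in bam against 447 and 512 in Phf7 bam. Among them the helicase gene vas lay between 173 and 188 FPKM, while nos, a translational repressor gene of germline stem cells, was at 136 and 129 FPKM in bam against 171 and 205 in Phf7 bam, without overlap (change 0.49, limma adjusted p = 0.610 in the fit used here, 0.0642 under robust moderation). Of 6 spermatocyte genes 4 had a mean under 1 FPKM, and their summed FPKM was 12.9 and 11.5 in bam against 9.36 and 12.5 in Phf7 bam, of which aly made up 7.15 to 8.49, while comr and dj were listed at 0 in all libraries but bam replicate 2. Genes of other tissues varied between libraries, and the fat body sum also separated the genotypes. The summed FPKM of 4 accessory gland genes was 4.14 and 341 in bam against 758 and 13.4 in Phf7 bam. That of 5 fat body genes was 15.3 and 29.1 in bam against 43.2 and 60.5 in Phf7 bam. The 5 fat body changes ran from 0.35 to 1.92. Both Phf7 bam libraries lay above both bam libraries for 2 of the 5, Tsf1 and Lsp2, and below for 0. Mean Tsf1 was 8.32 FPKM in bam against 18.5 in Phf7 bam, a change of 1.07. Its limma adjusted p was 0.0852 in the fit used here and 3.6e-09, a call, under robust moderation. Lsp2 was not called (change 1.92, limma adjusted p = 0.439, or 0.714 under robust moderation). The part of these germline and other tissue genes in the values below was not tested. Relative depth, read from the spacing of the lowest values, was 1 for bam replicate 1, 1.23 for bam replicate 2, 1.16 for Phf7 bam replicate 1 and 1.42 for Phf7 bam replicate 2, and absolute depth is unknown.

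Between the genotypes, no initiation factor or synthetase transcript differed past the threshold. For most the 95% interval of the change lay within 1.5-fold in the fit used here. A mean of at least 1 FPKM was reached by 46 of the 49 genes, 25 initiation factors and 21 synthetases, and these were tested with limma on log2(FPKM + 1) together with all other such genes. None of the 46 was called at an adjusted p under 0.05, against 0.234% of all 8965 genes tested. With robust moderation, which lets genes of unusual spread be moderated less than the others, limma again called 0 of the 46, against 3.42% of all genes. At an unadjusted p under 0.05 limma had 1 of the 46, Aats-ser, against 6.13% of all genes. A p that misses the threshold does not show equality, so the 95% intervals of the change are given beside it. On the log2(FPKM + 1) scale the interval lay within a 2-fold difference for 45 of the 46, or 97.8%, against 86.3% of all genes tested. It lay within 1.5-fold for 42 of the 46, against 65.2% of all genes tested, the exceptions being Aats-ser, eIF4E-3, eIF4E-6 and Aats-thr. The SE behind these intervals depended on the fit. For eIF-4a it was 0.13 here, 0.06 with library medians made equal and 0.19 with a replicate block. The counts within 2-fold and 1.5-fold were made for the fit used here only. Since these are whole testes, fewer cells of a type and less RNA per cell cannot be told apart.

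**Figure D1:**
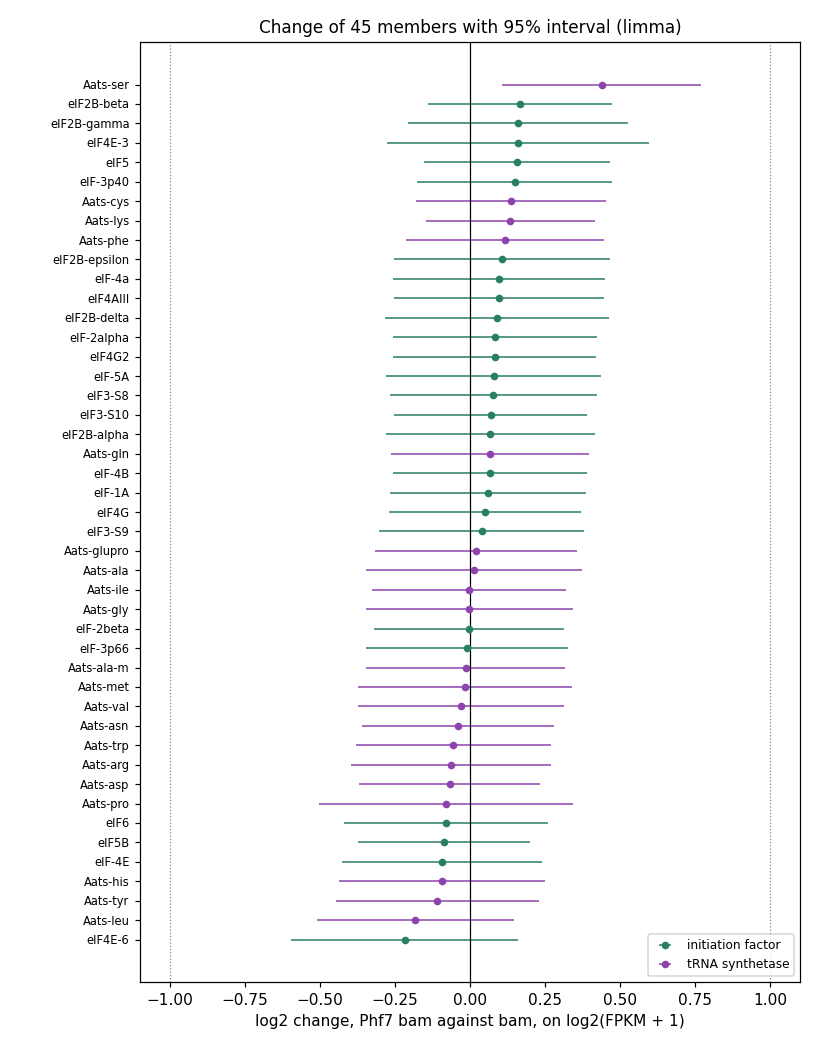
Change of 45 genes between Phf7 bam and bam testes on the log2(FPKM + 1) scale (horizontal axis), with 1 gene per line. Points are limma estimates, bars are 95% intervals, and dotted lines mark a 2-fold difference. Every interval lies between the dotted lines and all but that of Aats-ser cover 0. Aats-thr is not drawn because 1 library lists it at 0.

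The median change was 0.08 for the 25 initiation factors and -0.02 for the 21 synthetases, beside 0.03 for all 8965 genes tested. Of the initiation factors 19 had a positive and 6 a negative change, and of the synthetases 8, with Aats-thr and its listed 0 among them, had a positive and 13 a negative change. These medians turned on single libraries. Without Phf7 bam replicate 2 they were -0.04 and -0.13, and without Phf7 bam replicate 1 they were 0.19 and 0.11. With quantile normalization the median of all 46 was -0.03.

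The factor eIF2, which carries the initiator tRNA to the ribosome, had 2 subunit genes under these names. eIF-2alpha, whose protein is the target of stress kinases that slow initiation, was at 115.0 and 119 FPKM in bam against 114 and 135 in Phf7 bam. eIF-2beta was at 162 FPKM in both bam libraries and at 151 and 173 FPKM in Phf7 bam. For both genes the bam values lay inside the range of the Phf7 bam values. The changes were 0.08 for eIF-2alpha and 0.00 for eIF-2beta, with SE of 0.13 and 0.12 and limma adjusted p of 0.979 and 0.997.

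Of the exchange factor eIF2B, which reloads eIF2 with GTP, all 5 subunit genes were measured, at lower levels than eIF2. eIF2B-delta, a regulatory subunit, was the highest, at 64.2 and 65.5 FPKM in bam against 61.9 and 76.8 in Phf7 bam. eIF2B-epsilon, the catalytic subunit, was the lowest, at 15.1 and 12.9 FPKM in bam against 14.0 and 16.3 in Phf7 bam. The remaining subunits had means between 20.5 and 26.2 FPKM over the 4 libraries, so the delta transcript stood apart from the other 4. eIF2B-beta, another regulatory subunit, was at 22.2 and 20.1 FPKM in bam against 22.6 and 25.1 in Phf7 bam, without overlap between the genotypes. eIF2B-gamma, which pairs with epsilon, was at 19.5 and 19.1 FPKM in bam against 19.4 and 24.2 in Phf7 bam, so that only Phf7 bam replicate 2 stood higher. Their changes of 0.17 (95% interval -0.14 to 0.47) and 0.16 (-0.21 to 0.53) were among the 5 largest increases of the 46, with limma adjusted p = 0.913 and 0.929.

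Among the factors of start codon selection and subunit joining, eIF-1A was the most abundant and eIF5B the least. eIF-1A, which helps the small subunit scan for the start codon, was at 310.1 and 286 FPKM in bam against 295 and 327 in Phf7 bam. eIF5B, the GTPase that joins the large subunit, was at 52.1 and 51.0 FPKM in bam against 46.1 and 50.9 in Phf7 bam. The Phf7 bam values of eIF5B lay below both bam values by a narrow margin, a change of -0.09 (SE 0.11, limma adjusted p = 0.969). eIF5, which triggers GTP hydrolysis by eIF2, lay the other way, at 97.3 and 95.7 FPKM in bam against 101 and 114.7 in Phf7 bam, a change of 0.16 (SE 0.12, limma adjusted p = 0.920). eIF6, which keeps the large subunit from joining too early, was at 93.7 and 93.8 FPKM in bam against 81.2 and 96.5 in Phf7 bam.

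The scaffold eIF3 had 5 subunit genes among the members, with means from 124 to 275 FPKM. The highest was eIF-3p40, now called eIF3h, at 256 and 264 FPKM in bam against 271 and 308 in Phf7 bam. Its genotypes did not overlap, and the change was 0.15 (95% interval -0.18 to 0.47, limma adjusted p = 0.923). The lowest was eIF3-S10, now eIF3a, at 121 FPKM in both bam libraries and at 118 and 136 FPKM in Phf7 bam (change 0.07, SE 0.12, limma adjusted p = 0.979). The core subunit genes eIF3-S9 and eIF3-S8, now eIF3b and eIF3c, and eIF-3p66, now eIF3d1, overlapped between the genotypes. Of the subunits listed under other names, Int6 (eIF3e) was at 220.2 to 251 FPKM and Trip1 (eIF3i) at 118 to 145 FPKM, and Tango7 (eIF3m) was lower than the 5 members on average, at 93.9 to 114 FPKM. The duplicated subunit genes differed in this tissue. CG8335 (eIF3f2) was at 44.5 to 60.2 FPKM beside 229 to 278 FPKM for CG9769 (eIF3f1), while CG4810 (eIF3d2) reached at most 0.0182 FPKM and CG10881 (eIF3g2) was listed at 0 in all 4 libraries.

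The helicase gene eIF-4a had the highest level of all 49, at 952 and 955 FPKM in bam against 948 and 1094 in Phf7 bam. The change was 0.10 (SE 0.13, limma adjusted p = 0.975), with only Phf7 bam replicate 2 standing higher. eIF4AIII, a related helicase that acts in the exon junction complex in the nucleus, was the lowest of its group, at 83.8 and 84.3 FPKM in bam against 81.9 and 98.6 in Phf7 bam. eIF-4B, a helper of the cap helicase, had a mean of 116 FPKM. eIF-5A, a protein with the modified residue hypusine whose main role is in elongation, was the second in level, at 667 and 611 FPKM in bam against 629 and 722 in Phf7 bam (change 0.08, limma adjusted p = 0.979).

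The cap-binding family spanned the widest range. The general gene eIF-4E was at 341 and 342 FPKM in bam against 298 and 343 in Phf7 bam. The change of eIF-4E was -0.09 (95% interval -0.43 to 0.24, limma adjusted p = 0.975), and 1 Phf7 bam library stood lower while the other matched the bam libraries. eIF4E-3, the paralogue needed for male meiosis (dm3, 3L, 8222333 to 8223668), was at 54.2 and 47.0 FPKM in bam against 49.9 and 63.9 in Phf7 bam. In the same libraries the 6 spermatocyte genes summed to between 9.36 and 12.9 FPKM. The change of eIF4E-3 was 0.16 (-0.28 to 0.59, limma adjusted p = 0.949), and its genotypes overlapped. It supplied 11.9% to 15.5% of the summed FPKM of the 6 family genes that fit the name rule, against 83.3% to 86.7% for eIF-4E. The cap-binding gene 4EHP (eIF4EHP), at 40.8 to 46.4 FPKM, is listed under another name and is not in that sum.

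eIF4E-6 was low and had the largest decrease of the 46. Its locus is on 3R in dm3, from 24852161 to 24852896. It stood at 4.42 and 4.55 FPKM in bam against 3.91 and 3.53 in Phf7 bam, with both Phf7 bam values below both bam values. The change was -0.22 (95% interval -0.60 to 0.16, limma adjusted p = 0.906). eIF4E-7, with 0.58 and 0.45 FPKM in bam against 0.42 and 0.80 in Phf7 bam, and eIF4E-5, with 0.28 and 0.27 FPKM in bam against 0.14 and 0.51 in Phf7 bam, were below the filter. eIF4E-4 was listed at 0 in all 4 libraries. eIF4E-6 made up between 0.857% and 1.153% of the summed FPKM of the same 6 genes, without 4EHP.

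**Figure D2:**
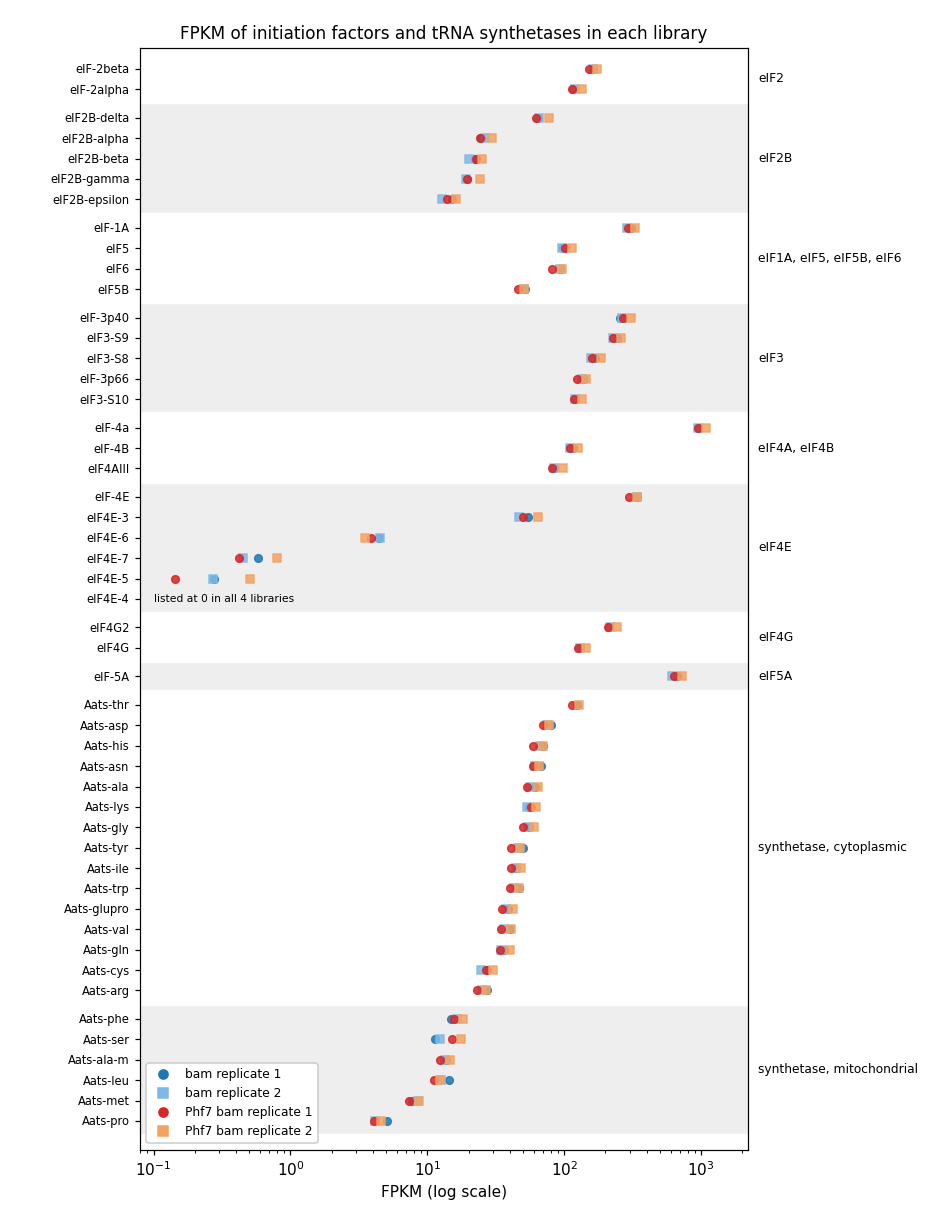
FPKM on a log scale (horizontal axis) of the 49 genes, grouped by role, with 1 point per library. The library points of most genes lie close together, while genes range from under 1 FPKM for eIF4E-7 and eIF4E-5 to over 948 FPKM for eIF-4a. Values of 0 are not drawn, which leaves out eIF4E-4 and the value of Aats-thr in bam replicate 2.

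Both scaffold genes of the cap complex were well expressed, and the germline form was the higher. eIF4G2, which spermatocytes need for meiosis (dm3, 3R, 19635550 to 19644364), stood at 212 and 216 FPKM in bam against 209 and 245 in Phf7 bam. Its locus lies within that of CG33111 on the same strand, so its level is uncertain where reads are shared. eIF4G was at 130.3 FPKM in both bam libraries and at 126 and 145 FPKM in Phf7 bam. Their changes were 0.08 and 0.05 (SE 0.13 and 0.12, limma adjusted p = 0.979 and 0.984). The ratio of eIF4G2 to eIF4G within a library was 1.63 and 1.65 in bam against 1.66 and 1.69 in Phf7 bam. This ratio varied less over the libraries than the levels of either gene.

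Ratios within a library do not depend on how the library was scaled. Each cap-complex ratio given here, also the narrow one of eIF4G2 to eIF4G, separated the genotypes. The ratio of eIF-4a to eIF-4E was 2.79 in both bam libraries, while the Phf7 bam libraries gave 3.18 and 3.19. The summed level of eIF4G and eIF4G2 relative to eIF-4E was 1.005 and 1.012 in bam against 1.125 and 1.135 in Phf7 bam. The ratio of eIF-4E to eIF4E-3 was 6.29 and 7.27 in bam against 5.97 and 5.37 in Phf7 bam. Relative to these genes, eIF-4E thus stood lower in both Phf7 bam libraries. The ratios were chosen after their values were seen and are not tested; with 2 libraries against 2 a two-sided exact permutation test cannot give a p below 0.333. Among all 990 pairs of the 45 tested genes without a listed 0, 61.1% had ratios that did not overlap between the genotypes, so the separation is common among these genes.

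**Figure D3:**
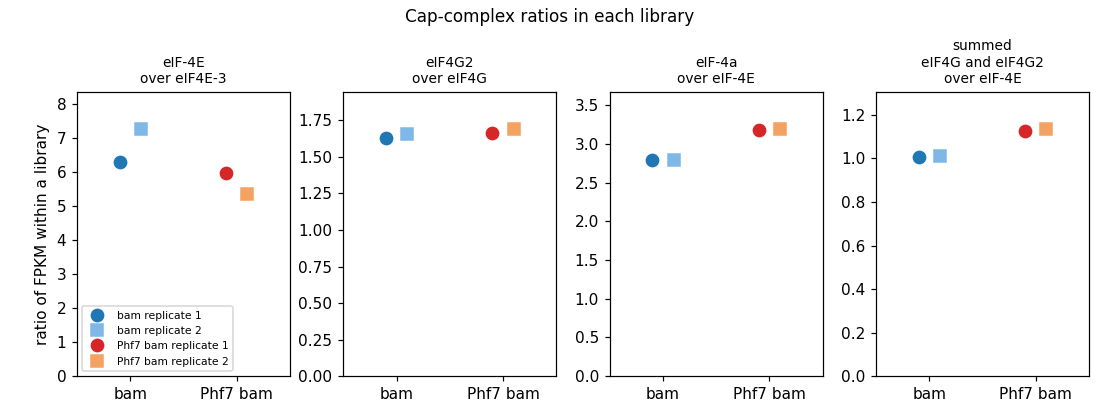
Ratio of FPKM within each library (vertical axes, from 0) for 4 pairs of cap-complex transcripts, with bam libraries on the left and Phf7 bam libraries on the right. The ratio of eIF-4a to eIF-4E is 2.79 in both bam libraries and 3.18 and 3.19 in Phf7 bam. That of eIF4G2 to eIF4G is 1.63 and 1.65 in bam against 1.66 and 1.69 in Phf7 bam.

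The median of the mean levels was 109 FPKM for the initiation factors, 46.2 FPKM for the cytoplasmic and 13.1 FPKM for the mitochondrial synthetases. The 15 cytoplasmic members had means of at least 25.5 FPKM, and all 6 mitochondrial members had means between 4.47 and 16.3 FPKM. The highest synthetase was Aats-thr, the threonyl enzyme (dm3, 2L, 12103734 to 12106894), at 124 FPKM in bam replicate 1 against 114 and 129 in Phf7 bam. It was listed at 0 in bam replicate 2, where the deposited table marks its estimate as failed, so no fold change is given. Of the 196 values of the 49 genes this was the only value without the status OK. When bam replicate 1 was left out, the bam genotype was represented by that 0 alone and limma called Aats-thr (adjusted p = 0.000556).

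The lowest cytoplasmic member was the arginyl enzyme Aats-arg, at 27.1 and 25.1 FPKM in bam against 22.9 and 27.0 in Phf7 bam. The alanyl enzyme Aats-ala was at 60.9 and 56.0 FPKM in bam against 53.7 and 64.6 in Phf7 bam, a change of 0.01 (SE 0.14, limma adjusted p = 0.995). Neither gene separated the genotypes. Among the 5 largest decreases were the tyrosyl enzyme Aats-tyr, at 50.2 and 45.7 FPKM in bam against 41.0 and 47.8 in Phf7 bam, and the histidyl enzyme Aats-his, at 70.2 and 67.0 FPKM in bam against 58.8 and 70.1 in Phf7 bam. Their changes were -0.11 and -0.09 (SE 0.13 each, limma adjusted p = 0.964 and 0.975), and both overlapped between the genotypes because Phf7 bam replicate 2 lay within the bam range. The lysyl enzyme Aats-lys did not overlap, at 55.6 and 53.4 FPKM in bam against 57.6 and 62.3 in Phf7 bam (change 0.13, SE 0.11, limma adjusted p = 0.923).

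The mitochondrial seryl enzyme Aats-ser showed the largest difference among the genes above 0 in all libraries. It was at 11.3 and 12.4 FPKM in bam against 15.2 and 17.8 in Phf7 bam, so both Phf7 bam libraries lay above both bam libraries. The change was 0.44 (SE 0.13, 95% interval 0.11 to 0.77), with an unadjusted limma p of 0.0199 and an adjusted p of 0.642, which does not pass. The adjusted p was 0.125 with robust moderation and lay between 0.125 and 1 over all settings, and the change between 0.33 and 0.54. Its cytoplasmic counterpart CG17259 was at 60.3 to 68.0 FPKM and overlapped between the genotypes. The ratio of CG17259 to Aats-ser was 5.96 and 5.19 in bam against 3.96 and 3.83 in Phf7 bam. This ratio rests on the same Aats-ser values and adds no separate evidence. The locus of Aats-ser (dm3, 3R, 11166407 to 11167939) lies entirely within that of CG6218 on the opposite strand, which was listed at 0 in all libraries. If strand was not used in counting, reads of these genes cannot be told apart.

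No other mitochondrial member had both Phf7 bam libraries above both bam libraries. The leucyl enzyme Aats-leu was at 14.5 and 12.6 FPKM in bam against 11.2 and 12.4 in Phf7 bam, without overlap, a change of -0.18 (95% interval -0.51 to 0.14, limma adjusted p = 0.906). The alanyl enzyme Aats-ala-m was at 13.7 and 13.6 FPKM in bam against 12.3 and 14.8 in Phf7 bam. The highest was the phenylalanyl enzyme Aats-phe, at 14.8 and 16.3 FPKM in bam against 15.7 and 18.3 in Phf7 bam, and the lowest was the prolyl enzyme Aats-pro, at 5.08 and 4.17 FPKM in bam against 4.05 and 4.58 in Phf7 bam. These 3 overlapped between the genotypes, with changes of -0.02 for Aats-ala-m, 0.12 for Aats-phe and -0.08 for Aats-pro.

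For 12 amino acids both a cytoplasmic and a mitochondrial enzyme, named so by current symbol, had values above 0 in every library when enzymes listed under other names were added. The cytoplasmic transcript was the higher in all 4 libraries for each of the 12. The ratio of the mean levels ran from 1.91 for the aspartyl enzymes to 9.64 for the asparaginyl enzymes, with a median of 3.36. For alanine, where both genes are members, the ratio was 4.44 and 4.12 in bam against 4.36 and 4.38 in Phf7 bam. The seryl, valyl, tryptophanyl and cysteinyl ratios did not overlap between the genotypes, which is 4 of 12 pairs, beside 61.1% of the ratios between member genes given above. The valyl ratio was 10.6 and 8.49 in bam against 7.41 and 7.66 in Phf7 bam, where the mitochondrial gene CG5660 was at 3.78 and 4.30 FPKM in bam against 4.64 and 5.30 in Phf7 bam (limma adjusted p = 0.906).

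**Figure D4:**
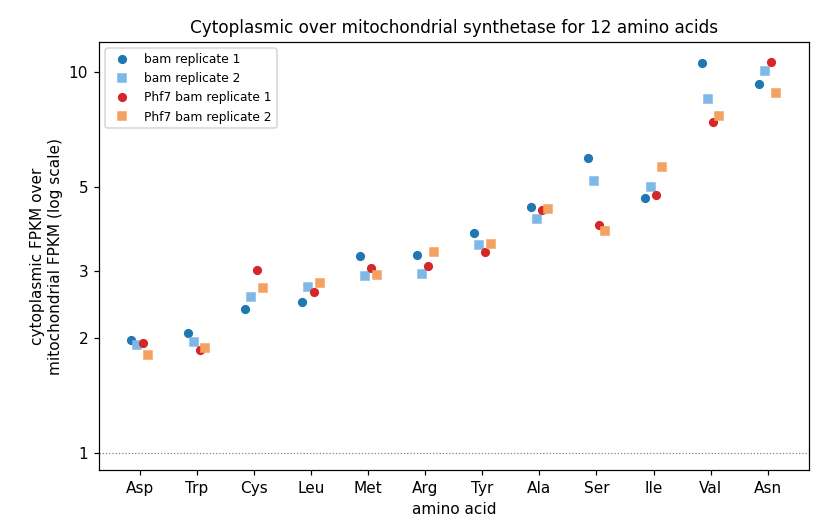
Ratio of the cytoplasmic to the mitochondrial synthetase FPKM (vertical axis, log scale) for 12 amino acids, with 1 point per library. All points lie above 1, with ratios of means from 1.91 and 1.94 for the aspartyl and tryptophanyl pairs to 9.64 for the asparaginyl pair. The seryl, valyl and tryptophanyl pairs have both Phf7 bam points below both bam points, and the cysteinyl pair has both above.

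In 5 of the 46 tested genes both Phf7 bam libraries lay above both bam libraries, against 20.5% of all genes tested, and in 3 both lay below, against 14% of all genes tested. The 5 were eIF5, eIF2B-beta, eIF-3p40, Aats-lys and Aats-ser, and the 3 were eIF5B, eIF4E-6 and Aats-leu. The Phf7 bam replicates differed from each other by more than the genotypes did. Phf7 bam replicate 2 had the highest value for 36 of the 46 genes, against 57.4% of all genes tested, and Phf7 bam replicate 1 had the lowest value for 30 of the 46, against 48.1% of all genes tested. Phf7 bam replicate 2 lay above replicate 1 for 45 of the 46, all but eIF4E-6, against 83.6% of all genes tested. The median difference between these replicates was 0.21 on the log2 scale for the 46 and 0.18 for all genes tested, which is larger than the median difference between the genotypes. The bam replicates differed by a median of 0.00 for the initiation factors and of -0.09 for the synthetases. Over the 4 libraries the highest value of a gene was at most 1.57 times its lowest among the 45 tested genes without a listed 0, with a median ratio of 1.19 against 1.24 for all genes tested.

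**Figure D5:**
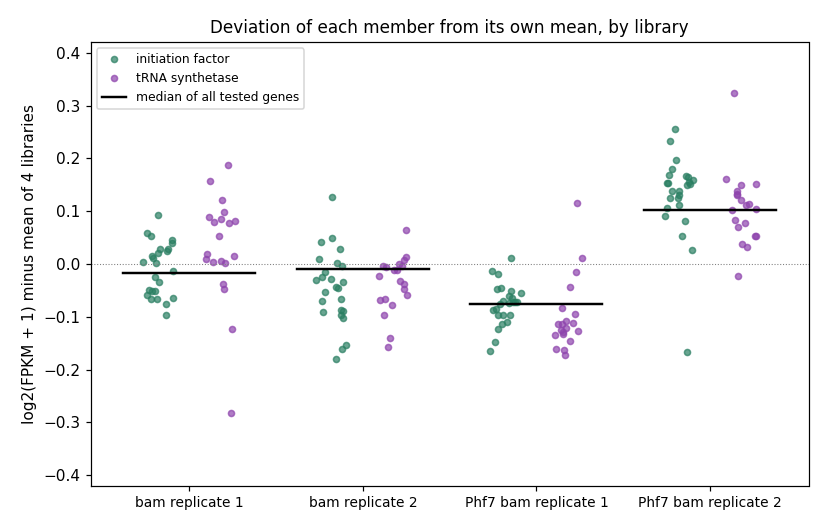
Deviation of 45 genes from their own mean over the 4 libraries, on the log2(FPKM + 1) scale (vertical axis), by library. Points are genes and the black lines are the medians of all 8965 tested genes. Points of Phf7 bam replicate 2 lie mostly above 0 and those of Phf7 bam replicate 1 mostly below, as do the medians of all tested genes at 0.10 and -0.08.

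Other genes of the pathway, from lists chosen by role, gave no call either, where limma called only 0.234% of all genes tested. The share of all genes tested at an unadjusted p under 0.05 was 6.13%. Of 15 tested initiation factors listed under other names limma called 0, with 0 at an unadjusted p under 0.05, and their median change was 0.07. The start codon factor eIF1, listed as CG17737, was at 290.3 and 293 FPKM in bam against 287 and 326 in Phf7 bam. Of 13 tested synthetases under other names limma called 0, also with 0 at an unadjusted p under 0.05, with a median change of -0.04. Of 6 tested proteins of the synthetase complex and relatives limma called 0, again with 0 at an unadjusted p under 0.05.

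Of 16 regulators of initiation limma called 0, with 0 at an unadjusted p under 0.05. The gene 4EHP is counted here and also among the 15 initiation factors under other names. Both Phf7 bam libraries lay above both bam libraries for 7 of the 16, against 20.5% of all genes tested. Both lay below for 2 of the 16, against 14% of all genes tested. Thor, the eIF4E-binding repressor, was at 63.7 and 74.3 FPKM in bam against 76.4 and 81.9 in Phf7 bam, a change of 0.20 (limma adjusted p = 0.906). 4EHP, a cap-binding protein that does not bind eIF4G and represses translation, was at 41.6 and 40.8 FPKM in bam against 41.7 and 46.4 in Phf7 bam. The eIF2alpha kinase gene PEK was at 23.8 and 22.4 FPKM in bam against 18.7 and 21.6 in Phf7 bam (change -0.19, limma adjusted p = 0.906), and the other such kinase gene, Gcn2, was at 14.4 to 15.5 FPKM throughout. Of 12 elongation and release factors, which include eIF-5A, limma called 0. At an unadjusted p under 0.05 there were 2 of the 12, against 6.13% of all genes tested. These were Ef1alpha100E (eEF1alpha2), at 8.85 and 7.99 FPKM in bam against 4.72 and 6.55 in Phf7 bam, and CG4567 (mEFG1), a mitochondrial elongation factor, at 10.9 and 10.8 FPKM in bam against 8.45 and 8.85 in Phf7 bam. Their limma adjusted p were 0.770 and 0.771. Robust moderation called 0 genes in each of these 5 lists, against 3.42% of all genes tested. The main elongation factor gene Ef1alpha48D (eEF1alpha1) was at 4765 to 5351 FPKM.

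The 49 genes lie on every major chromosome arm in dm3, with 12 on 3L, 12 on 3R, 10 on 2R, 8 on X, 5 on 2L, 1 on chromosome 4, which is eIF4G, and 1 in the 2RHet sequence, which is eIF-4B. The loci of 15 of them overlap another gene of the tables. Whole overlaps concern eIF6, which lies within ytr on the same strand, and eIF4G2, whose 8815 bp all lie within CG33111, also on the same strand. The other whole overlap is that of Aats-ser. CG33111 was listed at 0 in all libraries, and ytr was at 148 to 170.5 FPKM, so the values of eIF6 and eIF4G2 are uncertain where their reads are shared.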

How the data were processed

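Per the labels' protocols, libraries came from oligo-dT selected RNA through a directional kit. Each library has a deposited table of FPKM, made by the authors, that covers 14664 genes. TopHat2, Cufflinks, Cuffdiff and build dm3 are named, without versions, in the submitters' processing notes, and whether strand was used is not given in the sources used here. Genes with a mean of at least 1 FPKM over the 4 libraries were tested in limma 3.58.1 (R 4.3.3) on log2(FPKM + 1), with genotype as the only term, a trend on mean expression and two-sided tests. Benjamini-Hochberg adjusted p under 0.05 over all 8965 genes were called; the fit was checked on simulated data. Fold changes on this scale understate those of low genes.

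Starts of loci are counted from 1. Current names came from gene identifiers for 45 of the 49 members and from synonyms for 4. The members and lists were chosen with earlier results of these data known. Genes named are all eIF4E and eIF4G genes, the highest and lowest of each role, the 5 largest increases and decreases, any called or listed at 0, and the alanyl pair; others were named after their values were seen. Alternatives were other pseudocounts, filters, scalings and moderations, a replicate block and each library left out. Protein and promoter sequences were not analysed here. Tables were handled in pandas 2.3.3 and numpy 2.4.6 (Python 3.11.15), and plots drawn in matplotlib 3.10.9.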

Additional observations from a re-analysis of the deposited data

How the results depend on the processing

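The count of called genes among all tested, 21 with limma, was 0 with no filter (1051 at an unadjusted p under 0.05), 37 with a mean of at least 5 FPKM, 307 with robust moderation, 130 with genes listed at 0 left out, and 0 to 101 with a library left out. Same-numbered libraries of the genotypes deviated in opposite directions (r = -0.37 across 8965 genes, which are not independent), so the labels' numbers are not taken as pairs. The replicate block gave 18 calls, and a crossed pairing, added after seeing the data, gave 133. The members called stayed at 0 under each of these but for the count of synthetases, which was 0 to 1 with a library left out, the call being Aats-thr without bam replicate 1. With a library left out, the lone library is assumed to vary like the other genotype. The median change of the synthetases was -0.13 to 0.11 with a library left out, and that of the initiation factors, reported as 0.08, was -0.04 to 0.19 with a library left out and 0.00 with quantile normalization, so neither sign was stable. Of 417 changes of the named genes under 15 alternatives, 25 had another sign than reported, 11 of them without Phf7 bam replicate 2, and 0 of the 25 were beyond their SE in both fits. With 2 libraries per genotype and an unknown depth, differences smaller than the intervals given cannot be detected. Larger ones can also miss the threshold, because the intervals are not adjusted for the number of genes. The interval of Aats-ser, 0.11 to 0.77, left out 0, yet its limma adjusted p was 0.642.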
